A study of Mus musculus with 13 samples.

Results

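The circadian clock of the aortic wall was examined through 10 genes in the aortas of AngII-infused ApoE-/- mice, a model of abdominal aortic aneurysm. The 10 genes were taken by name from the 54532 genes of the count table. They were Arntl, Clock and Npas2, which form the activating (positive) arm of the clock, and Per2, Per3, Cry1, Cry2, Nr1d1, Nr1d2 and Dbp, which form the repressing (negative) arm and its output. All 10 had enough reads to be tested. The mice lacked ApoE, were 10 weeks old at the start and received AngII from a subcutaneous pump at 1000 ng/kg/min for up to 28 days. The control group, Ad-sham, comprised 6 aortas from mice given the empty adenovirus by tail vein, and the group Ad-FAM3A comprised 7 aortas from mice given the virus carrying a FLAG-tagged mouse Fam3a under the EF1A promoter, which is active in most cell types. Both groups received 5 injections. The mice lived under 12 h of light and 12 h of dark. The hour at which each aorta was taken and the sex of each mouse are not given in the sources used here.

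In the molecular clock, the ARNTL protein (also called BMAL1) pairs with CLOCK or with NPAS2 and binds E-box sequences to switch on Per, Cry, Nr1d and Dbp genes. The PER and CRY proteins then inhibit that pair, while NR1D1 and NR1D2 (REV-ERB alpha and beta) repress Arntl through ROR elements, so that over a day Arntl and Nr1d1 peak at opposite times. DBP activates genes through D-box sequences, and Cry1, which is under several kinds of element, peaks later than Nr1d1 and Dbp. Vascular smooth muscle has such a clock. A sample from each animal at one time shows a single moment of it.

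These sequence elements can be read in the promoters of some of the genes discussed here. RefSeq promoter windows (GRCm38.p6, from 250 bases before to 50 bases after a transcription start) were found for 9 of the 10 genes. The elements searched on both strands were the E-box CACGTG, the related element CACGTT, the D-box TTANGTAA, and a ROR element written TAGGTCA or TGGGTCA. Of all 32851 windows, 7.15% held the E-box, 4.68% the related element, 2.32% the D-box and 6.45% the ROR element. A match was present in 5 of the members, namely Arntl, Cry1, Cry2, Nr1d1 and Per3. The windows of Clock, Npas2, Nr1d2 and Dbp held none, and Per2 had no window. A match is a description of the letters and not evidence of binding. The stretches below are shown because Cry1 and Nr1d1 ran opposite to each other in these aortas. Per3 and Arntl are shown for the other elements. Capitals mark the match, and AACGTG is CACGTT read on the other strand.
Cry1, chr10:85185065-85185154, minus strand: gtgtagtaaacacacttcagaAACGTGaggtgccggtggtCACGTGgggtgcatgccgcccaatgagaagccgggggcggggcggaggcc
Nr1d1, chr11:98775378-98775477, minus strand: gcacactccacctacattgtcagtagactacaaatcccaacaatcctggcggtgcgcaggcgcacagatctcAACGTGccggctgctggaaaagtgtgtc
Per3, chr4:151044806-151044885, minus strand: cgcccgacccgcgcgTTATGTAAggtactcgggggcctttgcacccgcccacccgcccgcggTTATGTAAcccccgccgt
Arntl, chr7:113207530-113207559, plus strand: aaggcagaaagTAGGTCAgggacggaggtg
The Cry1 stretch held both an E-box and the related element, the Nr1d1 stretch held the related element alone, and the Per3 stretch held the D-box at 2 places. The ROR element of Arntl lay inside the transcribed part, which began at 113207465 in the count table.

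Levels are given as CPM, the reads of a gene relative to the total of its library after TMM scaling. Total counts were 14481179 to 19797407 per aorta, and Ad-sham5 was the deepest library. The virus carried Fam3a, yet Fam3a itself was at 17.9 to 30.3 CPM in the aortas labelled Ad-sham and at 18.5 to 29.7 CPM in those labelled Ad-FAM3A (log2 fold change -0.03, SE 0.16, edgeR adjusted p = 0.971). The level of Fam3a therefore gave no check of the labels, and the groups are named here as labelled. The smooth muscle genes Acta2 and Myh11 were present in every aorta, at no less than 1352 and 488 CPM. The aorta Ad-FAM3A6 stood apart in composition. It had the lowest smooth muscle, fibroblast and endothelial lists of its group and a B-cell list at a mean of 8.94 log2 CPM, against a group median of 3.10. Ad-sham5 lay at the end of its group in 5 of 12 lists, with the highest fibroblast and sympathetic neuron lists and the lowest brown adipocyte, cardiac muscle and skeletal muscle lists. In whole tissue, fewer cells of a type and less RNA per cell cannot be told apart.

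Among the activators, Arntl ranged from 34.8 to 48.8 CPM in the Ad-sham aortas (median 43.7) and from 22.2 to 66.0 CPM in the Ad-FAM3A aortas (median 47.7). Clock, the histone acetyltransferase partner of ARNTL, ranged from 99.97 to 143 CPM and from 79.3 to 228 CPM. Npas2, which can stand in for CLOCK, ranged from 19.1 to 44.96 CPM and from 7.19 to 45.9 CPM. All 3 activators had their lowest value in Ad-FAM3A6, and Clock and Npas2 had their highest in Ad-FAM3A5. The Ad-sham aortas lay within the range of the Ad-FAM3A aortas for each of the 3.

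Among the repressors, Per2 ranged from 15.0 to 54.0 CPM in the Ad-sham aortas (median 22.4) and from 22.8 to 46.0 CPM in the Ad-FAM3A aortas (median 31.2). Cry1, which holds the CLOCK and ARNTL pair in check late in the cycle, ranged from 10.8 to 37.5 CPM (median 22.5) and from 19.0 to 36.9 CPM (median 23.6). Ad-sham5 was lowest in both. Per3 and Cry2 varied less, from 9.70 to 20.3 CPM and from 20.8 to 49.4 CPM over the 13 aortas.

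The receptor gene Nr1d1 and the output gene Dbp varied most of the 10. Nr1d1, the receptor that represses Arntl, ranged from 9.57 to 159 CPM in the Ad-sham aortas (median 51.0) and from 15.2 to 78.6 CPM in the Ad-FAM3A aortas (median 36.6), a 16.6-fold range in all. Its paralogue Nr1d2 ranged from 16.7 to 72.1 CPM and from 21.8 to 58.0 CPM. Dbp, a PAR bZIP transcription factor directly driven by the clock, ranged from 1.72 to 32.9 CPM (median 4.90) and from 0.514 to 5.26 CPM (median 3.52). The lowest Dbp value, in Ad-FAM3A5, rested on 7 counts, and the highest, in Ad-sham5, on 706. Ad-sham5 was thus the highest aorta for both Nr1d1 and Dbp and the lowest for Cry1 and Per2.

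**Figure D1:**
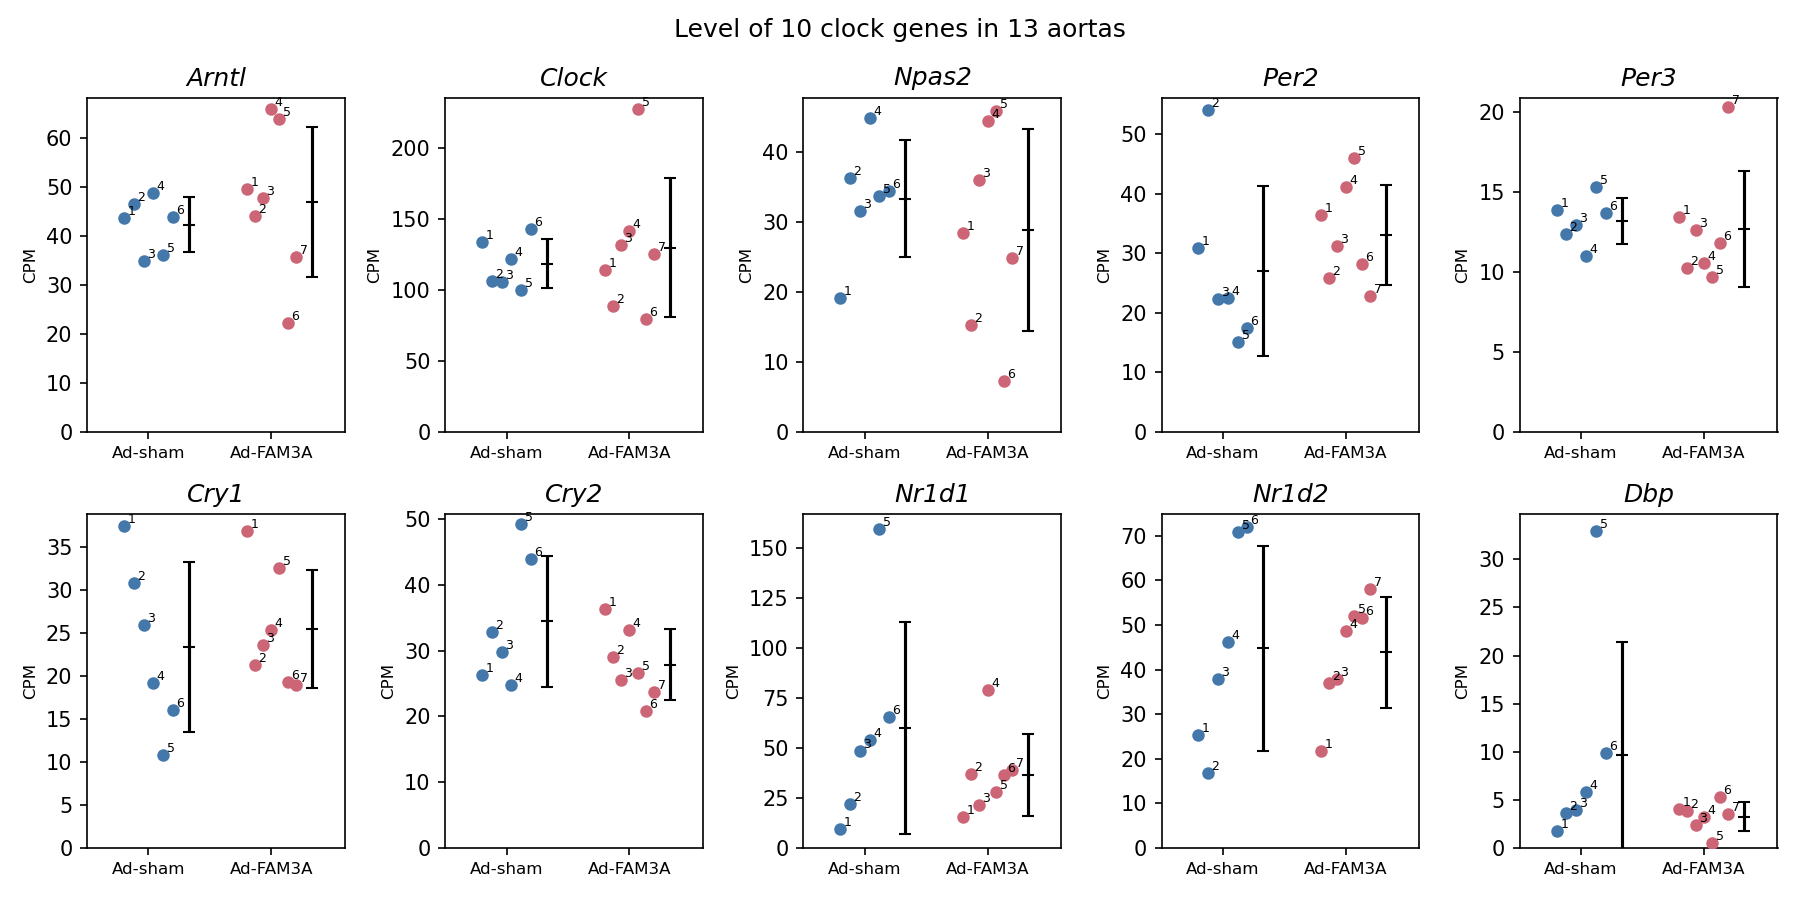
CPM of each clock gene in every aorta, with Ad-sham in blue and Ad-FAM3A in red. Numbers are the replicate numbers of the labels and the black bars are mean ± SD (n = 6 and n = 7), cut at 0 for Dbp. Dbp and Nr1d1 have 1 far value, Ad-sham5 at 32.9 and 159 CPM, and for all 10 genes the groups overlap.

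The SD of log2 CPM over the 13 aortas was 1.30 for Dbp, above that of 94.0% of the 15811 genes tested, and 1.06 for Nr1d1, above 90.2%. It was 0.75 for Npas2, 0.64 for Nr1d2 and 0.54 for Per2, and 0.28 for Per3, above 18.7% of genes, where the median gene had 0.46. Per kilobase of exon, Nr1d1 was the highest of the 10 genes, at 15.3 ± 12.7 CPM per kb (SD, n = 13). Clock followed at 9.07 ± 2.67, Nr1d2 at 8.19 ± 3.19, Cry1 at 7.33 ± 2.42, Npas2 at 6.46 ± 2.46, Arntl at 5.96 ± 1.55, Per2 at 5.17 ± 1.95 and Cry2 at 4.90 ± 1.30 CPM per kb. Dbp, at 2.08 ± 2.79, and Per3, at 1.34 ± 0.286 CPM per kb, were lowest. Each mean differed from that of the next gene in this order by less than its SD, apart from Cry2 over Dbp, which held in 12 of 13 aortas.

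Whether the virus altered the clock was asked by comparing the groups gene by gene. The edgeR quasi-likelihood test called 0 of 15811 genes (0%) at an adjusted p under 0.05, the smallest adjusted p being 0.810, and 934 genes (5.91%) had an unadjusted p under 0.05. DESeq2 called 10 genes and none of the members. Of the clock genes, 0 of 10 passed after adjustment, 1 had an unadjusted p under 0.05, and 4 of 10 had a positive log2 fold change. The median over the members was -0.04 on the log2 scale, beside 0.0032 over all genes. For 0 of the 10 members, and for 15 of all genes tested, the groups did not overlap.

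The gene with the unadjusted p was Dbp, at a log2 fold change of -1.56 (SE 0.62, adjusted p = 0.810 by edgeR), with 6 of 7 Ad-FAM3A aortas below the Ad-sham median. Without Ad-sham5 its log2 fold change was -0.60 (adjusted p = 0.871 by edgeR). An exact two-sided permutation test on log2 CPM over all 1716 splits of the aortas gave p = 0.1504 for Dbp, and 0.165 to 0.810 for the 9 other members, where the smallest p possible is 0.000583. Nr1d1 had a log2 fold change of -0.71 (SE 0.52) and Cry2 of -0.31 (SE 0.19), and without Ad-sham5 these were -0.11 and -0.18. Arntl (0.15, SE 0.21), Clock (0.13, SE 0.21) and Npas2 (-0.21, SE 0.35) had values smaller than their SE. Per2 was at 0.29 (SE 0.28) and at 0.17 without Ad-sham5, and all 7 Ad-FAM3A aortas lay above the Ad-sham median of Per2, although the groups overlapped.

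Whether the arms ran opposite from aorta to aorta was then examined within the 13 aortas. The mean log2 CPM of Arntl, Clock and Npas2 and that of the 7 other members had a Pearson r of -0.018 with each other, with a jackknife SE of 0.21. It was 0.092 within the Ad-sham aortas and -0.16 within the Ad-FAM3A aortas. With the negative arm reduced to Per2, Per3, Cry1 and Cry2 the r was 0.39. The difference between the arm means, which does not depend on library scaling, was 1.31 ± 0.41 (SD, n = 6) in Ad-sham and 1.40 ± 0.68 (SD, n = 7) in Ad-FAM3A. It ran from 0.21 in Ad-FAM3A6 to 2.38 in Ad-FAM3A5, and Ad-sham5, at 0.57, was lowest of the Ad-sham aortas.

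Both signs occurred within the negative arm. Of the 45 pairs among the 10 genes, 26 had a positive r and 19 a negative one. The 3 activators had r between 0.66 and 0.77 with each other. The lowest of these, Clock with Npas2, did not pass after adjustment (permutation p = 0.0243, adjusted p = 0.0993). It was at -0.28 within the Ad-sham aortas, 0.86 within the Ad-FAM3A aortas and 0.42 without Ad-FAM3A5 and Ad-FAM3A6. Between activators and the others, 12 pairs were positive and 9 negative, from -0.59 to 0.49. Within the 7 others the pairs spanned -0.84 to 0.80. Per2 and Cry1 were each negative with Nr1d1, Nr1d2 and Dbp, a grouping that was chosen after these values were seen and is given as a description.

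**Figure D2:**
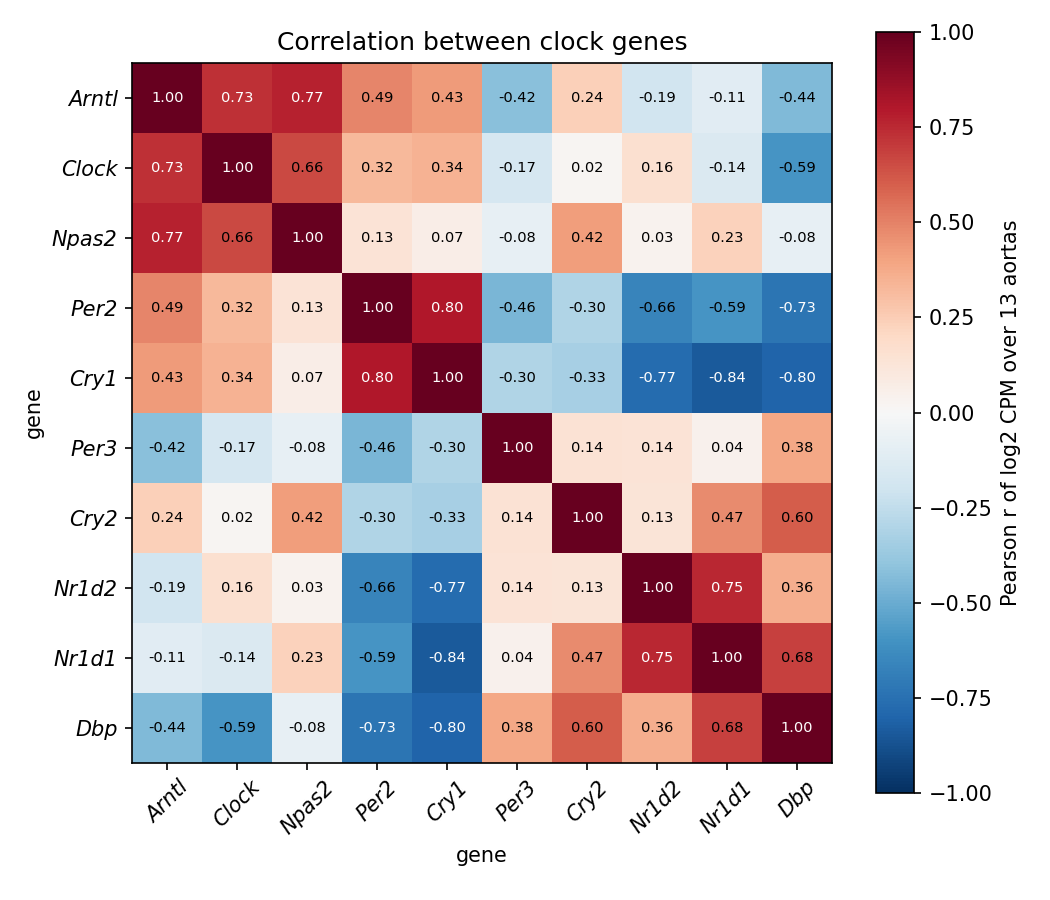
Pearson r of log2 CPM between each pair of clock genes over the 13 aortas, from -1 in blue to 1 in red. The 3 activators form a positive block in the upper left, and Per2 and Cry1 are negative with Nr1d2, Nr1d1 and Dbp, the lowest value being -0.84 between Cry1 and Nr1d1.

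Cry1 and Nr1d1 were the pair that ran most clearly opposite. Their Pearson r over 13 aortas was -0.84 (permutation p = 0.00031, adjusted p = 0.0139 over the 45 pairs) and Spearman's rho was -0.75 (permutation p = 0.00451, adjusted p = 0.0817). The r was -0.65 without Ad-sham1 and Ad-sham5, the 2 aortas farthest from the median of Nr1d1. It was -0.95 within the Ad-sham aortas and -0.50 within the Ad-FAM3A aortas, and between -0.91 and -0.74 when any 1 aorta was left out. Expressed as reads, Nr1d1 had 0.255 times the count of Cry1 in Ad-sham1 and 14.7 times in Ad-sham5. Ad-FAM3A1, at 0.412, was lowest and Ad-FAM3A4, at 3.11, highest among the Ad-FAM3A aortas. Of the other genes tested, 0.00633% had a lower r with Nr1d1 than Cry1 had.

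Nr1d2 moved with Nr1d1 and, like it, against Cry1. The 2 receptors had r = 0.75 with each other (permutation p = 0.00263, adjusted p = 0.0237; rho = 0.67, adjusted p = 0.106), above 99.8% of the genes tested, and 0.70 without Ad-sham1 and Ad-sham5. Cry1 had r = -0.77 with Nr1d2 (permutation p = 0.00203, adjusted p = 0.0228) and -0.71 without those same aortas. Both relations kept their sign within each virus group.

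Dbp ran against Cry1 (r = -0.80, permutation p = 0.001, adjusted p = 0.0150). Its r with Nr1d1 was 0.68 and did not pass after adjustment (permutation p = 0.0125, adjusted p = 0.0627). Both values were nearer to 0 without Ad-sham5. Without Ad-sham5 the r of Dbp with Nr1d1 was 0.46 (permutation p = 0.134), and within the Ad-FAM3A aortas it was 0.13. For Dbp with Cry1 the r was -0.65 without Ad-sham5 and -0.48 within the Ad-FAM3A aortas. Dbp with Nr1d2 was at 0.36 (permutation p = 0.229), and at -0.26 within the Ad-FAM3A aortas.

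Per2 moved with Cry1 (r = 0.80, permutation p = 0.00098, adjusted p = 0.0150), at 0.80 within each virus group. Per2 ran against Dbp (r = -0.73, permutation p = 0.00362, adjusted p = 0.0251). Its r with Nr1d2 (-0.66, adjusted p = 0.0681) and with Nr1d1 (-0.59, adjusted p = 0.115) did not pass after adjustment. The r of Per2 with Nr1d2 was -0.15 within the Ad-FAM3A aortas and -0.37 without Ad-sham2 and Ad-sham5. Within the Ad-FAM3A aortas the r of Per2 with Nr1d1 was -0.032, and without Ad-sham5 it was -0.41 over the remaining aortas (permutation p = 0.181). Per3 and Cry2 had no pair with an adjusted p under 0.05. After adjustment for the 45 pairs no Spearman rho among all pairs passed 0.05, the smallest adjusted p being 0.0817.

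**Figure D3:**
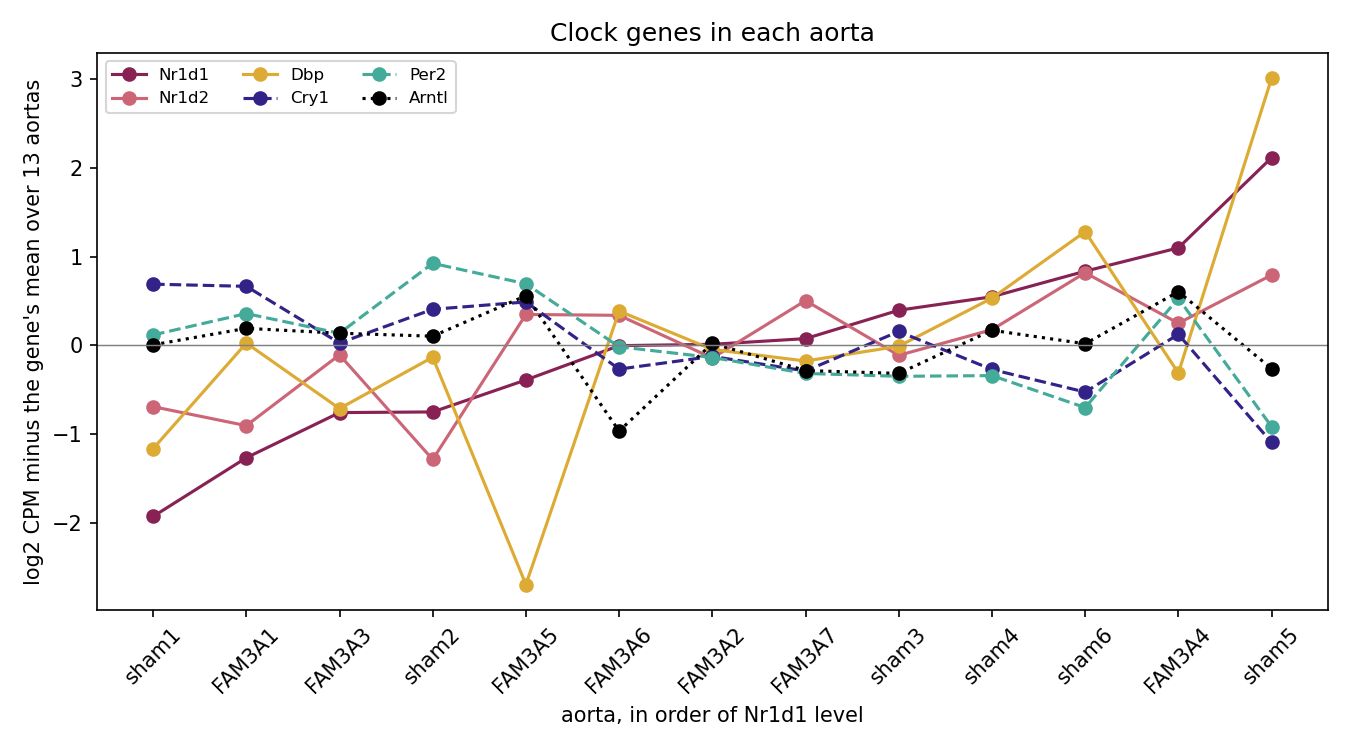
Log2 CPM of 6 clock genes in each aorta, as the deviation from the mean of the gene over 13 aortas, with the aortas in order of Nr1d1 from Ad-sham1 to Ad-sham5. Cry1 and Per2 (dashed) lie above 0 at the left and mostly below 0 at the right, Nr1d2 and Dbp do the reverse, Dbp drops in Ad-FAM3A5 (7 counts), and Arntl (dotted) stays within 1 log2 unit of 0.

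No opposite run of Arntl and the receptor genes Nr1d1 and Nr1d2 was detectable over the 13 aortas. Its r was -0.11 with Nr1d1 (permutation p = 0.711; rho -0.11) and -0.19 with Nr1d2 (permutation p = 0.540; rho -0.21). Without Ad-FAM3A4 and Ad-FAM3A6, the aortas farthest from the median of Arntl, these were -0.43 and -0.22. The r of Arntl with Nr1d1 was -0.44 within the Ad-sham aortas and 0.053 within the Ad-FAM3A aortas. With Dbp it was -0.44 (permutation p = 0.124), with Per3 -0.42 (0.15), with Cry1 0.43 (0.146), with Per2 0.49 (0.0892) and with Cry2 0.24 (0.435), the p in brackets being from permutation. Without Ad-FAM3A6 the r of Arntl with Per2 was 0.69 (permutation p = 0.0122) and with Per3 -0.73 (permutation p = 0.00722).

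Arntl moved with its partners. The r with Clock was 0.73 (permutation p = 0.00842, adjusted p = 0.0474; rho = 0.55) and with Npas2 0.77 (permutation p = 0.0039, adjusted p = 0.0251; rho = 0.70). Without Ad-FAM3A4 and Ad-FAM3A6 they were 0.66 and 0.38, so that the relation with Npas2 rested on those aortas. The r of Arntl with Npas2 was 0.22 within the Ad-sham aortas and 0.91 within the Ad-FAM3A aortas. Without Ad-FAM3A6 alone it was 0.48 (permutation p = 0.110). Of the genes tested, 94.8% had a lower r with Arntl than Clock, and 96.4% than Npas2.

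Arntl also moved with smooth muscle RNA. The smooth muscle list ranged from 7.08 to 8.98 mean log2 CPM in Ad-sham and from 6.69 to 9.68 in Ad-FAM3A, and the B-cell list from 3.14 to 4.32 and from 2.10 to 8.94. The mean log2 CPM of 8 smooth muscle genes had r = 0.84 with Arntl (permutation p = 0.00034, adjusted p = 0.00204 over 12 tissue lists; rho = 0.90), and 0.89 without Ad-sham1 and Ad-FAM3A6. It was 0.36 within the Ad-sham aortas and 0.97 within the Ad-FAM3A aortas. The B-cell list had r = -0.82 with Arntl (adjusted p = 0.00204), and -0.64 without Ad-FAM3A6 and Ad-FAM3A7. Its rho of -0.71 did not pass after adjustment (adjusted p = 0.0502). Within the Ad-sham aortas its r was -0.51 and within the Ad-FAM3A aortas -0.90. The other 10 lists had adjusted p of 0.0936 or more for r. None of the 12 lists passed for Nr1d1 (smallest adjusted p 0.578 for r and 0.525 for rho) or Dbp (0.668 and 0.276), and the smooth muscle list had r = 0.23 with Nr1d1 and -0.13 with Dbp. Within the 6 Ad-sham aortas some of the 12 were farther from 0, among them the brown adipocyte list (-0.77 with Nr1d1 and -0.84 with Dbp), the white adipocyte list (-0.74 and -0.71), the endothelial list (0.72 and 0.62) and the fibroblast list (0.61 and 0.74). Within the Ad-FAM3A aortas these 4 lists had r between -0.37 and 0.18 with Nr1d1 and between -0.65 and 0.75 with Dbp. With the smooth muscle list held constant, the partial r of Arntl was farther from 0 than its r with Nr1d1 (-0.57), Dbp (-0.62), Nr1d2 (-0.24), Cry1 (0.61) and Clock (0.75). It was nearer to 0 with Npas2 (0.42), Per2 (0.35) and Per3 (-0.16), and had the other sign with Cry2 (-0.15). The partial r of Cry1 with Nr1d1 was -0.90. These partial values were chosen after the data were seen and have no p, and the part of tissue composition in the results was not tested further.

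**Figure D4:**
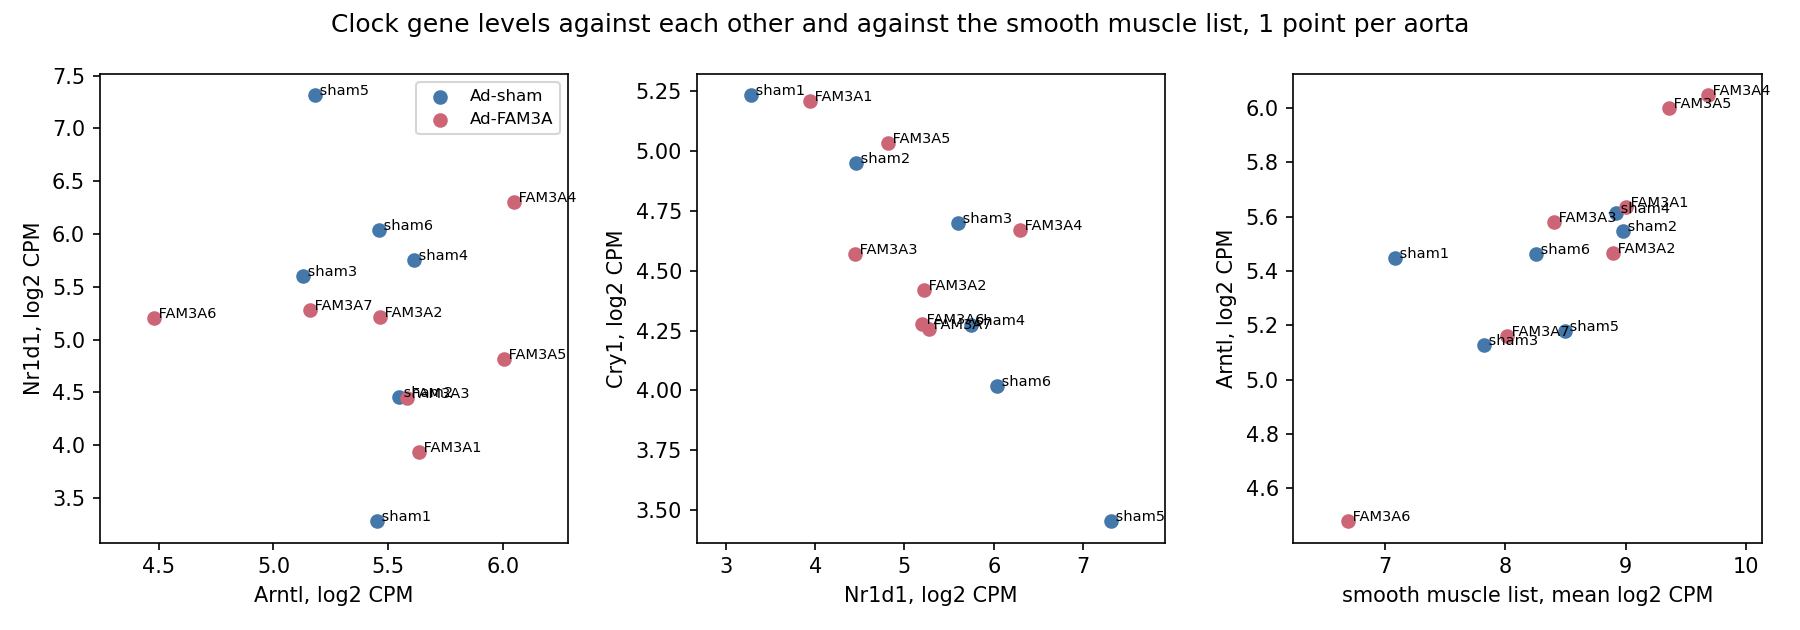
Log2 CPM of Nr1d1 against Arntl, of Cry1 against Nr1d1, and of Arntl against the mean of the smooth muscle list, 1 point per aorta (Ad-sham blue, Ad-FAM3A red). The first panel shows no trend (r = -0.11), the second falls from Ad-sham1 to Ad-sham5 (r = -0.84), and the third rises from Ad-FAM3A6 to Ad-FAM3A4 (r = 0.84).

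The same questions were put to the whole table by fitting each gene on the level of a clock gene beside virus group. The slope is the log2 change of a gene for 1 log2 unit of the clock gene. On Arntl, 1334 of 15810 genes (8.44%) passed at an adjusted p under 0.05, 691 rising and 643 falling with it, and 21.0% had an unadjusted p under 0.05. Of the 9 other members, 1 passed after adjustment and 2 before, shares near those over all genes. Npas2 rose with Arntl (slope 1.46, SE 0.31, adjusted p = 0.0131 by edgeR). Clock had a slope of 0.70 (SE 0.21, adjusted p = 0.0543 by edgeR and 0.0320 by DESeq2). By edgeR, Clock passed with no group term (adjusted p = 0.0354) and without Ad-FAM3A2 (adjusted p = 0.0378). Leaving out any other aorta did not bring Clock past the threshold. Nr1d1 was at -0.07 (SE 0.65), Nr1d2 at -0.26 (SE 0.40) and Dbp at -1.29 (SE 0.78), none of them past the threshold. All 8 smooth muscle genes rose with Arntl and all 6 B-cell genes fell. Without Ad-FAM3A6 no gene passed (1877 had an unadjusted p under 0.05), and Npas2 was at 0.98 (adjusted p = 0.384). The count was 669 without Ad-FAM3A4 and 615 without Ad-FAM3A5, and Npas2 then had adjusted p of 0.0555 and 0.0551 by edgeR, past the threshold in neither. The smooth muscle list as a further covariate, added after the data were seen, also left 0 genes (2200 unadjusted), with Npas2 at 0.81 (adjusted p = 0.511).

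On Nr1d1, a fit added after the data were seen, 0 of 15810 genes (0%) passed after adjustment, and DESeq2 called 41, among them Cry1 (slope -0.39, adjusted p = 0.0460 by DESeq2). At an unadjusted p under 0.05, 2.59% of genes had a positive and 4.65% a negative slope on Nr1d1. Of the 9 other members, 2 had a positive and 2 a negative slope at that threshold. Nr1d2 had a slope of 0.47 (SE 0.11, unadjusted p = 0.0013, adjusted p = 0.402 by edgeR) and Dbp of 0.80 (SE 0.23, unadjusted p = 0.00355). Cry1 had -0.39 (SE 0.086, unadjusted p = 0.000562, adjusted p = 0.382) and Per2 -0.28 (SE 0.12, unadjusted p = 0.0417). Arntl was at -0.020 (SE 0.11). Leaving out Ad-sham1 or Ad-sham5 lowered the genes with an unadjusted p under 0.05 from 1145 to 196 and 446. Without Ad-sham5 the slopes of Cry1 (-0.33) and Nr1d2 (0.49) kept an unadjusted p under 0.05 in edgeR, and those of Dbp (0.49) and Per2 (-0.22) did not.

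On Dbp, 0 of 15810 genes (0%) passed and DESeq2 called 105, among them Cry1 (slope -0.36, adjusted p = 0.0320 by DESeq2). At an unadjusted p under 0.05, 3.60% of genes had a positive and 3.46% a negative slope on Dbp. Of the members 1 had a positive slope at that threshold, Nr1d1 (0.56, SE 0.17), and 3 a negative one, Cry1 (-0.34, SE 0.085), Per2 (-0.30, SE 0.10) and Clock (-0.20, SE 0.075). Without Ad-sham5, Cry1 (-0.28) and Clock (-0.27) kept an unadjusted p under 0.05 in edgeR, and Nr1d1 (0.42) and Per2 (-0.29) did not. For Clock, Ad-FAM3A5 weighed more, as it had the lowest Dbp (7 counts) and the highest Clock. The Pearson r of Clock with Dbp was -0.59 over all aortas and -0.26 without Ad-FAM3A5. It was -0.34 within the Ad-sham aortas and -0.91 within the Ad-FAM3A aortas.

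**Figure D5:**
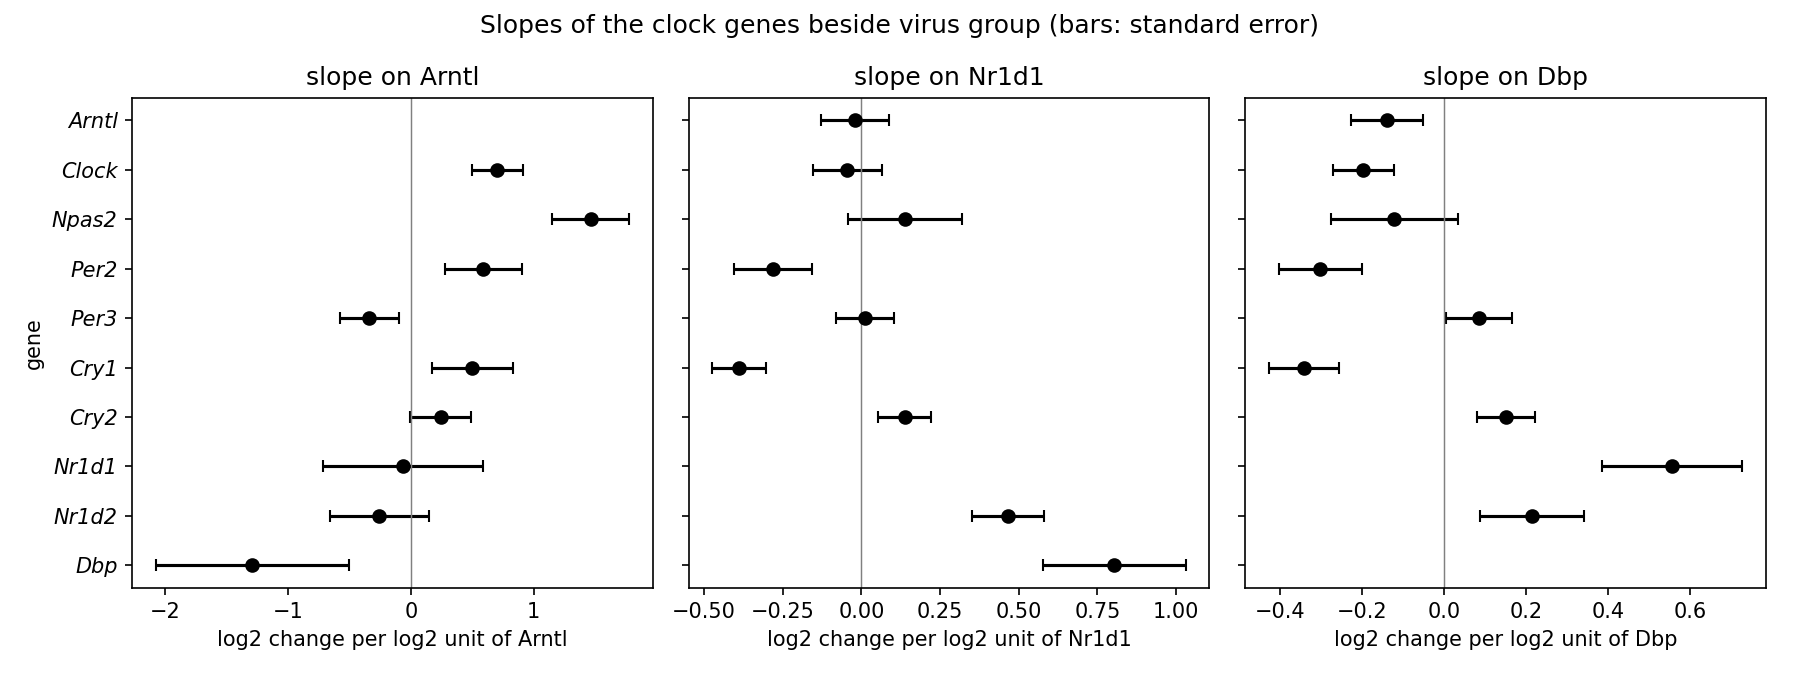
Slope of each clock gene on Arntl, on Nr1d1 and on Dbp from the edgeR fits beside virus group over 13 aortas (points, bars ± SE, log2 change per log2 unit; the 3 axes differ in scale). Npas2 and Clock lie right of 0 on Arntl, while on Nr1d1 and on Dbp the genes Cry1 and Per2 lie left of 0.

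The other genes of the pathway were read from a list of 23, of which 22 were tested. Between the virus groups 9 of the 22 were higher in Ad-FAM3A, none passed after adjustment and 1 had an unadjusted p under 0.05, where 5.91% of all genes had one. Their median was -0.0096 on the log2 scale. At an unadjusted p under 0.05, 1 had a positive and 4 a negative slope on Nr1d1, and 2 a positive and 3 a negative slope on Dbp, and none passed after adjustment on either. Over all genes these shares were 2.59% and 4.65% on Nr1d1, and 3.60% and 3.46% on Dbp. Without Ad-sham5, none of the 22 had an unadjusted p under 0.05 on Nr1d1 or on Dbp by edgeR. This check was added after the data were seen. The slopes given next are therefore a description that includes Ad-sham5. They kept their sign without that aorta, and some fell more than others. Of the 6 genes named, Bhlhe41 and Ciart had their highest and Nampt, Wee1, Nfil3 and Usp2 their lowest level in Ad-sham5. Bhlhe41, an E-box repressor, had a slope of 0.38 (SE 0.097) on Dbp and 0.33 (SE 0.14) on Nr1d1, and 0.27 and 0.093 without Ad-sham5. Ciart, a CLOCK and ARNTL inhibitor, had 0.57 (SE 0.25) on Dbp and 0.52 without Ad-sham5. Nampt, the rate-limiting enzyme of NAD salvage, had -0.30 (SE 0.083) on Dbp and -0.31 (SE 0.096) on Nr1d1, and -0.22 and -0.21 without it. Wee1, a kinase that delays mitosis, had -0.27 (SE 0.096) and -0.31 (SE 0.097), and -0.11 and -0.19 without it. Nfil3, which competes with DBP for D-boxes, had -0.46 (SE 0.14) on Dbp and -0.29 without Ad-sham5, where it was at 15.2 CPM. Usp2, a deubiquitinase under clock control, had -0.27 (SE 0.092) on Nr1d1 and -0.20 without Ad-sham5.

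On Arntl, the ROR receptor gene Rora, whose product activates Arntl, had a slope of 1.21 (SE 0.26, adjusted p = 0.0126 by edgeR) and was the one gene of the 22 past the threshold after adjustment. Nfil3 (0.92, SE 0.41) and Timeless (-0.95, SE 0.33) had an unadjusted p under 0.05. These counts, 1 and 3 of 22, are smaller shares than the 8.44% and 21.0% over all genes, and nothing is read from them about the list. None of the 9 kinase and ligase genes, which set the stability of PER and CRY, passed after adjustment on any of the 3 clock genes. Of 7 genes induced by glucocorticoids, hormones that set peripheral clocks, 1, Klf9, passed on Arntl (slope 0.81, SE 0.21, adjusted p = 0.0291 by edgeR), where 8.44% of all genes did. Without Ad-FAM3A6, or with the smooth muscle list as a covariate, neither Rora nor Klf9 passed, since no gene did. Between the virus groups none of the 7 passed after adjustment, and 2, Rasd1 (log2 fold change -1.43) and Fkbp5 (0.83), had an unadjusted p under 0.05, as 5.91% of all genes did.

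Over all genes tested, those most like Arntl by Pearson r over the 13 aortas were Ryk, Rassf8, Gm12454, Fermt2 and Nudt4, from 0.95 to 0.94. Those least like it were Sema4b (-0.97), Tap1, Nadsyn1, Cnp and Itgae (-0.90). For Dbp the highest were D430040D24Rik (0.88), Cirbp, 2410002F23Rik, Ptgir and Gprc5c (0.83), and the lowest were Ahsa2 (-0.91), Ccdc43, Tcp1, Zfp113 and Thap2 (-0.89). Cirbp encodes a cold-inducible RNA-binding protein, and Tcp1 a subunit of a cytosolic chaperonin. None of the genes most or least like Dbp passed after adjustment in the fit on Dbp.

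Of the members, 4 share exon bases with an antisense gene. Whether reads were counted by strand is not given in the sources used here, so reads of such partners cannot be told apart. Dbp shares 539 of 2993 exon bases with Sphk2, Nr1d1 263 of 3077 with Thra, Cry2 295 of 6320 with D930015M05Rik and Arntl 33 of 7523 with Gm45355. The part of such reads in the results was not tested.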

How the data were processed

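Aortic RNA from 13 mice was sequenced by the authors, aligned to GRCm38 with Hisat2 and counted per gene with FeatureCounts; the labels and the methods name different extraction and library kits. The deposited counts, 1 whole-number column per aorta, were used as given; all columns were mapped to an aorta by name. A further file held the authors' FPKM, as 1 value per group, and was not used for any result. The replicates are separate mice as labelled; no batch is given.

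Counts were tested with the edgeR 4.0.16 quasi-likelihood test in R 4.3.3 after filterByExpr (15811 of 54532 genes kept) and TMM scaling, with Benjamini-Hochberg adjustment across every tested gene and a threshold of 0.05. Log2 CPM used a prior count of 2. Each slope fit used the log2 CPM of 1 clock gene, centred, beside virus group; that gene and the fitted genes come from the same libraries. DESeq2 1.42.0 was an alternative. Correlations used 100000 permutations (two-sided). Single members were also tested by exact permutation. The group and slope tests were first tested on simulated counts with known changes.

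The members, the pathway lists and the tissue lists were chosen with earlier results of these data known. Named were the 10 members, the pathway and glucocorticoid lists, Fam3a, defining tissue genes, and the 5 genes most and least like Arntl or Dbp. Coordinates are from the count table and matched GENCODE vM21; promoter sequences are from RefSeq. A floor of 3 counts corresponds to 0.140 to 0.220 CPM per aorta, and covers counting error only. Alternatives were other scaling, no filter, DESeq2, a replicate block, no group term, and leaving out each aorta. The values of 1 gene of the pathway list are not reported here.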

Additional observations from a re-analysis of the deposited data

Results flagged for a closer look

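Dbp in Ad-FAM3A5 was at -0.65 log2 CPM, far below the other Ad-FAM3A aortas, which lay between 1.33 and 2.43. Its gap to the nearest of them was 0.644 of the range of the group, above Dixon's 95% critical value for 7 aortas. It was the only one of 22 sets of values examined (10 genes and the contrast of the arms in each virus group) to pass, and chance passes about 1 in 20, or 1.1 of 22. The value rested on 7 counts. The same aorta had the highest Clock and Npas2 and the lowest Per3. Without it the log2 fold change of Dbp was -1.34.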

How the results depend on the processing

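With DESeq2 the counts of called genes were 10 for virus group, 2441 for the slope on Arntl, 105 on Dbp and 41 on Nr1d1, against 0, 1334, 0 and 0 with edgeR. Without the filter on low counts 6 genes were called on Dbp. With the smooth muscle list as a covariate 0 were called on Arntl, the slope of Cry2 on Arntl was -0.35 (0.24 without it), and that of Npas2 on Nr1d1 -0.029 (0.14). With that list held constant the r of Arntl with Cry2 was -0.15 (0.24). Limiting the negative arm to Per2, Per3, Cry1 and Cry2 gave an r of 0.39 between the arm means. Leaving out 1 aorta moved the count on Arntl between 0 and 1780. It moved values that were never past the threshold across 0: the group differences of Clock (-0.052 to 0.23), Per3 (-0.20 to 0.014), Cry1 (-0.029 to 0.30) and Nr1d2 (-0.20 to 0.16); the slopes on Arntl of Cry2 (-0.037 to 0.31) and Nr1d1 (-1.02 to 0.17); the slopes on Nr1d1 of Arntl (-0.12 to 0.012), Npas2 (-0.015 to 0.18) and Per3 (-0.046 to 0.045); and the r of Arntl with Cry2 (-0.13 to 0.45), of Arntl with Nr1d1 (-0.30 to 0.0046) and of Nr1d1 with Per3 (-0.17 to 0.14). The cause was not tested. Deviations of same-numbered aortas had correlations of -0.33 to 0.45, so the numbers were not taken as pairs. With the replicate block over 12 aortas 0 genes were called (596 unadjusted, 791 without the block) and the group difference of Nr1d2 was 0.015. Other scaling factors reversed no sign and changed no call among the members.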
